A study of Mus musculus with 8 samples.

Results

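Most of the genes described here encode structural subunits of the mitochondrial respiratory chain (complexes I to IV) and of ATP synthase (complex V). They were taken by symbol from the protein-coding rows of the count table, with a pattern for the Nduf, Sdh, Uqcr, Cox4 to Cox8, Atp5 and mt- subunit families, and no measured value was used. The pattern found 101 genes among 53700 rows, of which 21899 were protein-coding. Of the 101, 88 are nuclear genes and 13 are carried by the mitochondrial genome (mt- genes), which is its whole protein-coding set. Complex I had 37 nuclear and 7 mt- genes, complex II had 4 nuclear genes and 0 mt- genes, complex III had 8 and 1, complex IV had 21 and 3, and complex V had 18 and 2. Ndufa4 and Ndufa4l2, named for complex I, were counted with complex IV, where the Ndufa4 protein sits. The pattern leaves out some subunit genes, such as Cyc1 and Ndufab1, which were counted with the electron carriers below. It takes in Cox7a2l, a factor of supercomplex assembly, and Cox5b-ps, whose symbol marks a pseudogene. Counts and sums by complex are therefore those of the matched genes. Of the members, 93 passed the filter on low counts (80 nuclear, 13 mt-) and 6 had a count of 0 in all 8 libraries.

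Complexes I, III and IV pass electrons from NADH to oxygen and move protons across the inner mitochondrial membrane, complex II feeds in electrons from succinate, and ATP synthase uses the proton gradient to make ATP. The mitochondrial genome is transcribed from both strands into long precursors that are then cut into the separate mRNAs, whereas each nuclear subunit has its own promoter and is imported as a protein. Blood stem cells are known for a low reliance on respiration while quiescent, and for a rise in mitochondrial activity as they become dividing progenitors.

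The study sequenced polyA RNA, with Smart-Seq2 libraries, from 2 populations of mouse bone marrow: hematopoietic stem cells (HSC, CD48-CD150+) and multipotent progenitors (MPP, CD48+CD150-), both sorted within the LSK gate. All cells were CD45.2+ donor cells taken from irradiated wild-type CD45.1 recipients 13 weeks after bone marrow transplantation. Donors were wild type for Nfat5 and carried Vav-Cre (Nfat5 +/+ Vav-Cre, WT), were Nfat5 fl/fl Vav-Cre (N5), were IFNAR1-deficient (IFNAR) or were both NFAT5-deficient and IFNAR1-deficient (DKO). Vav drives Cre across the blood lineages, and IFNAR1 is needed to sense type I interferon. The labels do not say whether donors labelled IFNAR carried Vav-Cre. Each of the 8 groups is 1 library made from a pool of 5 mice with equal cell numbers per mouse, so no group has a replicate, and the p-values below measure the spread between these libraries only. All groups share irradiation and transplantation, and no untransplanted control was used here.

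Libraries held 28871693 to 47205950 counts, with 1.76 to 2.56% on genes of the mitochondrial genome. Values below are CPM, counts brought to a common library total with edgeR's TMM scaling. Summed HSC markers (7 of 7 detected, 896 to 1206 CPM in HSC libraries against 246 to 276 in MPP) and MPP markers (5 of 5, 256 to 549 against 6783 to 11690) followed the sort. Levels of both targeted genes went against the labels. In the order WT, N5, IFNAR, DKO, which holds for every set of 4 values below, Nfat5 stood at 33.0, 22.5, 3.10 and 35.4 CPM among HSC and at 5.57, 7.66, 0.192 and 11.5 CPM among MPP. Ifnar1 stood at 121, 125, 113 and 34.9 CPM in HSC and at 37.0, 87.5, 43.5 and 125 CPM in MPP. Loss of a few exons need not lower the count over a whole gene. That does not bear on Nfat5 being lowest in both libraries labelled IFNAR, or on Ifnar1 being lowest in the HSC library labelled DKO and the MPP library labelled WT. Columns were matched to libraries by the names in the labels, and whether each column holds the genotype its label names was not tested. Genotype names below are therefore only labels, and so is every direction drawn from them.

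The sequences shown first are the places where mt- genes overlap, because a read that lies within the shared bases cannot be assigned to 1 gene by position. In the GENCODE M21 annotation (GRCm38) mt-Atp8 and mt-Atp6, both subunits of the proton channel part of ATP synthase, share 43 bases (chrM:7927-7969). The complex I genes mt-Nd4l and mt-Nd4 share 7 bases (chrM:10167-10173). Capitals mark the shared bases, on the + strand, within chrM:7897-7999 and chrM:10137-10203.
mt-Atp8 / mt-Atp6: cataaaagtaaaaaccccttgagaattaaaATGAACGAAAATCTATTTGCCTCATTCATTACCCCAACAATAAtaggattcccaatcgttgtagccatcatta
mt-Nd4l / mt-Nd4: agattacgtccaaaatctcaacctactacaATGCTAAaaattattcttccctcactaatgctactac
A further 14 bases are shared by mt-Nd5 and mt-Nd6 on opposite strands (chrM:13552-13565), and Smart-Seq2 does not mark the strand. The coordinates are those of the annotation, whose build is older than the GRCm39 build named in the submitters' processing notes.

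Promoter letters, which the choice by symbol did not use, were counted next. RefSeq promoters (GRCm38.p6, 250 bases before to 50 after the start) were matched for 69 of 87 nuclear symbols, giving 74 promoters, and both strands were searched. The core site of NRF1, a factor known for nuclear respiratory genes, is in capitals below. It occurred in 6.76% of member promoters (5 of 74) against 1.33% of all 21263 promoters of protein-coding genes. Its shorter form TGCGCATG, which overlaps the core, occurred in 10.8% against 2.60%. An ETS-type site, CCGGAAG, occurred in 23.0% against 11.6%, the YY1-type site AAGATGGCG in 9.46% against 1.83%, and CCAAT in 41.9% against 38.2%. Most member promoters hold none of the NRF1, ETS-type or YY1-type letters. Member promoters had a median of 19 CG dinucleotides and 57.5% GC, against 13 and 56.3% over all promoters of protein-coding genes. The NRF1, ETS-type and YY1-type letters contain CG, and the part of base composition in their shares was not tested. The windows below, on each gene's own strand, show the NRF1 letters in capitals for 4 members: a subunit c gene and a small subunit of ATP synthase (Atp5g2, Atp5k), a complex IV subunit (Cox6a1) and a complex I subunit (Ndufa11). They lie at chr15:102671055-102671114, chr5:108434415-108434474, chr5:115349086-115349145 and chr17:56717677-56717736.
Atp5g2: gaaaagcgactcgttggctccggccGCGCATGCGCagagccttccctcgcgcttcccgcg
Atp5k: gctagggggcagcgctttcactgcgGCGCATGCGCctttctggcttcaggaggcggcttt
Cox6a1: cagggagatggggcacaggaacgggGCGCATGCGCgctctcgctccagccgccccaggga
Ndufa11: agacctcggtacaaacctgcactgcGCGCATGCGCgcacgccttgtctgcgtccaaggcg
The fifth was Uqcrc1, whose match lies at or after its start and is not printed. A match is a description of letters only, not evidence of binding.

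The most abundant members over all 8 libraries were mt- genes. Per kilobase of transcript, the mean level was 4476 CPM for mt-Co1 (the catalytic subunit of complex IV), 2990 for mt-Cytb (the cytochrome b of complex III), 2513 for mt-Atp6, 1882 for mt-Co2 and 1718 for mt-Nd1. The most abundant nuclear member, Atp5b (the catalytic beta subunit of ATP synthase), stood at 1108 CPM per kb and Cox4i1 at 603. Levels per kb differed widely among the mt- genes although they come from shared precursors: mt-Nd4 and mt-Nd5 stood at 849 and 612, mt-Co3 at 190, and mt-Nd6 and mt-Nd2 at 104 each. The 3 mt- genes under 500 bases had the lowest levels of the 13, with mt-Atp8 at 44.5, mt-Nd3 at 12.8 and mt-Nd4l at 1.13 CPM per kb. mt-Atp8 and mt-Nd4l are partners in the overlaps printed above, and mt-Nd3 overlaps no other mt- gene. Any part of fragment length, polyA capture or the division of shared reads in these levels was not tested.

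**Figure D1:**
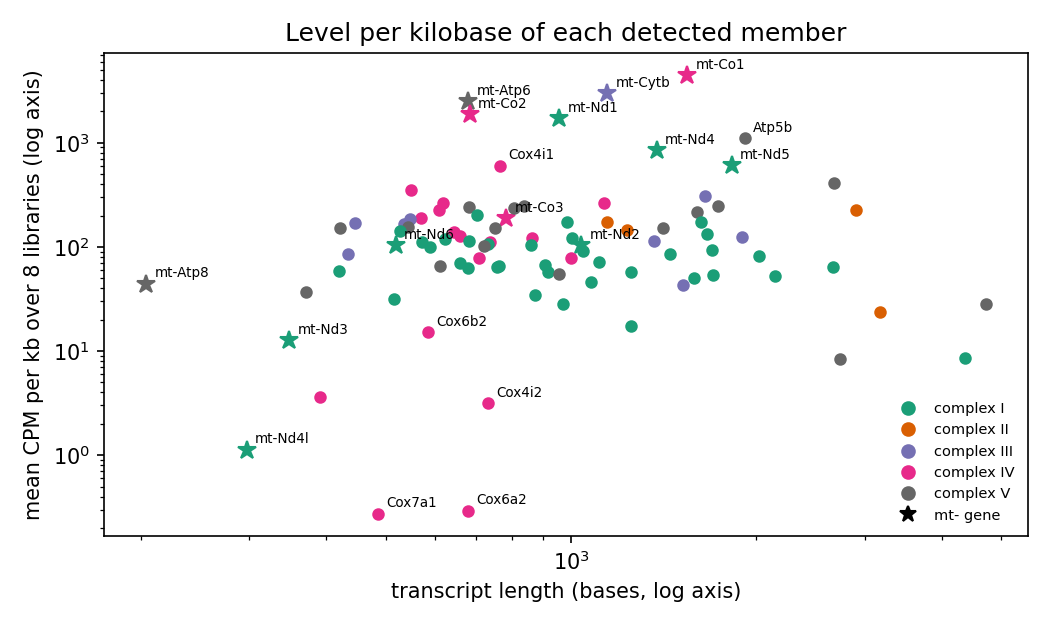
Mean CPM per kilobase over 8 libraries (y, log axis) against transcript length in bases (x, log axis) for each detected member with a length in GENCODE M21, coloured by complex, with stars for mt- genes. mt-Co1 is highest at 4476, and the 3 mt- genes under 500 bases lie at 1.13 to 44.5, below the other 10 at 104 or more.

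Among nuclear members with a mean of 10 CPM or more, the median level per kb was 70.2 for complex I (35 genes with a length), 158 for complex II (4), 145 for complex III (8), 165 for complex IV (12) and 153 for complex V (17). Subunits of 1 complex, which assemble in fixed ratios as proteins, spanned 23.6-fold in complex I and 131-fold in complex V as transcripts. These spans rest on the length of 1 annotated transcript per gene. Their lowest levels belonged to genes with long transcripts, Ndufb2 at 8.59 (4371 bases) and Atp5md at 8.46 (2733 bases). The median lengths were 971 bases in complex I and 838 in complex V. The part of the choice of transcript in the spans was not tested. Tissue-restricted forms of complex IV subunits were at or near 0. Cox7b2, Cox8b, Cox8c and Ndufa4l2 had a count of 0 in every library, and the muscle forms Cox6a2 and Cox7a1 reached at most 0.823 and 0.686 CPM. Cox4i2, the form known from lung and hypoxia, ranged from 1.01 to 6.49 CPM, against 406 to 645 CPM for its usual partner Cox4i1. Cox6b2, known from testis, ranged from 6.03 to 11.6 CPM, against 129 to 197 CPM for Cox6b1. The 3 subunit c genes, which encode the same mature protein, took 33.3 to 49.4% (Atp5g1), 27.1 to 41.0% (Atp5g2) and 17.6 to 25.7% (Atp5g3) of their summed CPM.

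The members varied less between libraries than most genes did. The median SD of log2 CPM over the 4 HSC libraries was 0.28 for the 93 tested members and 0.79 for all 12132 genes tested, and over the 4 MPP libraries it was 0.22 and 0.59. Among genes with a mean of 10 CPM or more the values were 0.27 for members against 0.68 for 9266 genes in HSC, and 0.21 against 0.51 in MPP. This is a description, since high counts lower the SD and the members are abundant.

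The first comparison was HSC against MPP, fitted within genotype label over all 8 libraries with edgeR's quasi-likelihood test. No member passed a Benjamini-Hochberg adjusted p of 0.05, and the smallest adjusted p was 0.279 (mt-Nd1). Of all 12132 genes, 2 passed (0.0165%). At an unadjusted p under 0.05, 6 of 93 members were lower in HSC and 0 were higher. Of all 12132 genes, 685 were lower and 540 higher, or 10.1% over both directions. The members' share is below that background over both directions together, but not among lower genes alone. Log2 differences (HSC over MPP) were positive in 37 members and negative in 56, with a median of -0.11, against -0.10 over all genes tested. In bulk libraries, fewer cells of a type and less RNA per cell cannot be told apart. DESeq2, run as an alternative on the same table, called 15.5% of all genes and 7 members. Lower in HSC by that tool were mt-Nd1, mt-Nd2, Ndufb8, Uqcrq, Ndufa4 and Atp5c1, with adjusted p between 0.000156 and 0.0355, and Ndufa8 was higher (adjusted p = 0.0262).

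The 2 smallest p-values among the members belonged to complex I genes of the mitochondrial genome. mt-Nd1, a core subunit of the membrane arm (ENSMUSG00000064341.1, chrM:2751-3707 in GRCm38), stood at 1438, 1158, 1458 and 1196 CPM in HSC and at 1625, 1915, 2300.0 and 2062 CPM in MPP. Every HSC library was below every MPP library (log2 difference -0.59, SE 0.13, edgeR adjusted p = 0.279, lower in 4 of 4 pairs). mt-Nd2, another membrane subunit, stood at 79.3, 71.8, 105 and 61.8 CPM in HSC and at 107, 115, 211 and 109.8 CPM in MPP. Its groups did not overlap either (log2 difference -0.74, SE 0.19, adjusted p = 0.324), and the highest HSC library lay just under the lowest MPP library.

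The remaining mt- complex I genes separated less or not at all. mt-Nd4 was 1073 ± 70.1 CPM in HSC and 1267 ± 156 in MPP (SD, n = 4 libraries), lower in 4 of 4 pairs with overlapping ranges (log2 -0.23, SE 0.09). mt-Nd5 was 1022 ± 158 against 1211 ± 249.8 CPM, and mt-Nd6, the one gene on the other strand, 45.5 ± 8.90 against 62.3 ± 10.4 CPM, each lower in 3 of 4 pairs. mt-Nd3 (2.64 to 5.93 CPM in HSC, 0.816 to 8.57 in MPP) and mt-Nd4l, with counts of 22, 35, 24 and 0 in HSC and 0, 0, 0 and 11 in MPP, were too low to compare.

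Among the mt- genes of the other complexes, mt-Atp6 had the lowest fitted value. mt-Co1 stood at 7232, 6668, 7305 and 6310.5 CPM in HSC and at 5235, 7158, 7845 and 7569 CPM in MPP. The HSC values lie inside the MPP range, and the fitted log2 difference was 0.00 (SE 0.14). mt-Co2 was 1227 ± 45.4 against 1347 ± 192 CPM, mt-Co3 163 ± 45.7 against 134 ± 35.5 CPM, and mt-Cytb 3223 ± 306 against 3618 ± 537 CPM. mt-Atp6 was 1532 ± 243 against 1891 ± 206 CPM, lower in 4 of 4 pairs (log2 -0.31, SE 0.12, adjusted p = 0.494). mt-Atp8 was 8.60 ± 0.923 against 9.55 ± 2.77 CPM.

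**Figure D2:**
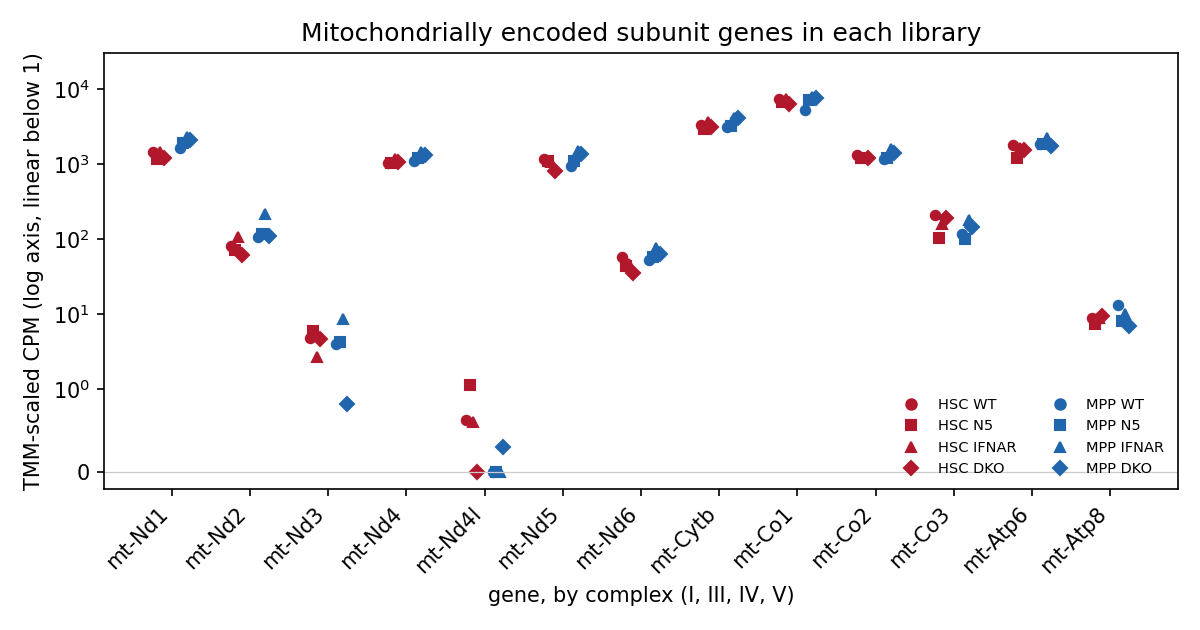
TMM-scaled CPM of the 13 mt- genes (y, log axis, linear below 1) in each of the 8 libraries, HSC in red and MPP in blue, with 1 marker shape per genotype label. For mt-Nd1 the 4 HSC points (1158 to 1458) lie below the 4 MPP points (1625 to 2300.0), while for mt-Co1 they lie within the MPP range.

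Because the mt- genes come from shared precursors, their make-up was also read within each library, where the scaling cancels; these shares and ratios were chosen after the values were seen. Complex I genes made up 21.4, 21.9, 21.8 and 20.3% of the summed mt- CPM in HSC and 24.9, 24.5, 25.8 and 24.7% in MPP. Complex IV genes made up 49.5, 51.6, 48.9 and 49.8% in HSC and 42.6, 47.5, 44.9 and 46.0% in MPP. Neither share overlapped between the cell types. The ratio of mt-Nd1 to mt-Co1 was 0.199, 0.174, 0.1995 and 0.189 in HSC and 0.310, 0.267, 0.293 and 0.272 in MPP. Set against mt-Cytb, mt-Nd1 gave ratios of 0.431, 0.403, 0.407 and 0.386 in HSC and 0.520, 0.602, 0.564 and 0.505 in MPP, again without overlap. As scores over members these carry no p. The complex I share includes mt-Nd1, which is also the numerator of both ratios, so the share and the ratios are not separate results. Of the other mt- complex I genes, only mt-Nd2 had groups that did not overlap. Whether the complex I share separates without mt-Nd1 was not tested.

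**Figure D3:**
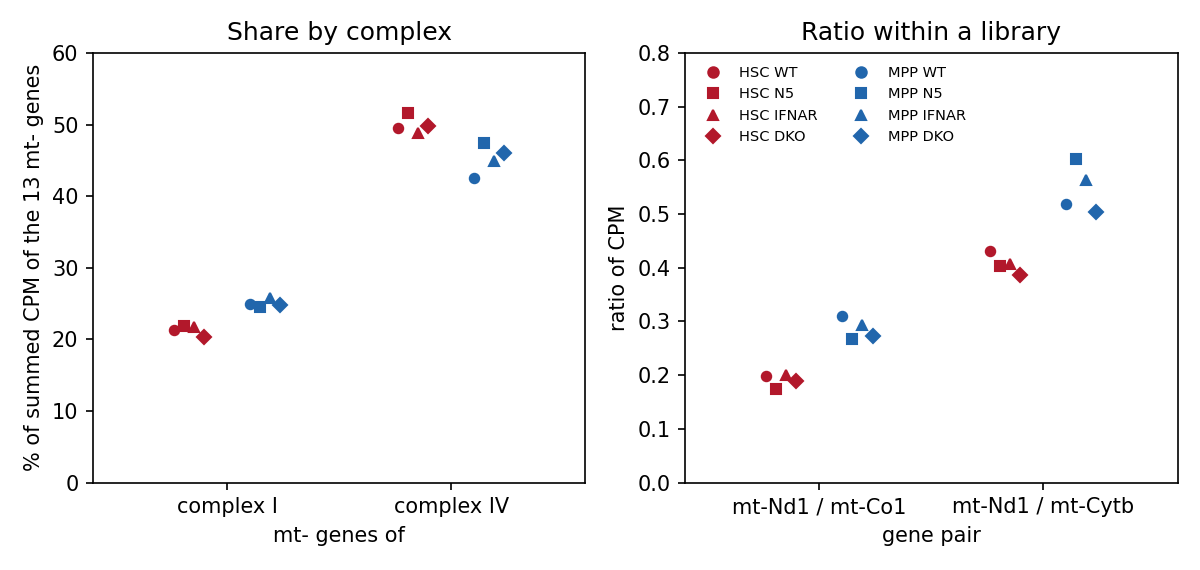
Left, share (%) of the summed CPM of the 13 mt- genes taken by complex I and complex IV genes; right, ratios of mt-Nd1 to mt-Co1 and to mt-Cytb, 1 point per library. The complex I share is 20.3 to 21.9% in HSC and 24.5 to 25.8% in MPP, and both ratios are lower in every HSC library than in any MPP library. mt-Nd1 is part of that share and of both ratios.

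Summed by genome, the 13 mt- genes held 16570.1 ± 1289 CPM in HSC and 18607 ± 2632 CPM in MPP, with HSC lower in 3 of 4 pairs and higher in the pair labelled WT. The 88 nuclear genes held 12435 ± 322 CPM and 13038 ± 247 CPM, with HSC lower in 4 of 4 pairs and ranges that overlap (11995 to 12769.5 against 12739.7 to 13342). The log2 difference of these nuclear sums was between -0.12 and -0.03 in the 4 pairs. The mt- genes took 55.3 to 59.7% of all member CPM in HSC and 54.1 to 62.1% in MPP, so the balance between the genomes did not separate the cell types. By complex, the mt- complex I sum was 3537 ± 339 CPM in HSC and 4657 ± 734 in MPP, whereas the nuclear complex I sum was 3088 ± 171 and 3178 ± 172. The nuclear sums of complexes II and III were 1033 ± 114 against 1169 ± 45.6 CPM and 1210.0 ± 102 against 1322 ± 58.4 CPM, those of complex IV 1844 ± 133 against 1898 ± 141 CPM, and those of complex V 5260 ± 237 against 5471 ± 214 CPM.

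**Figure D4:**
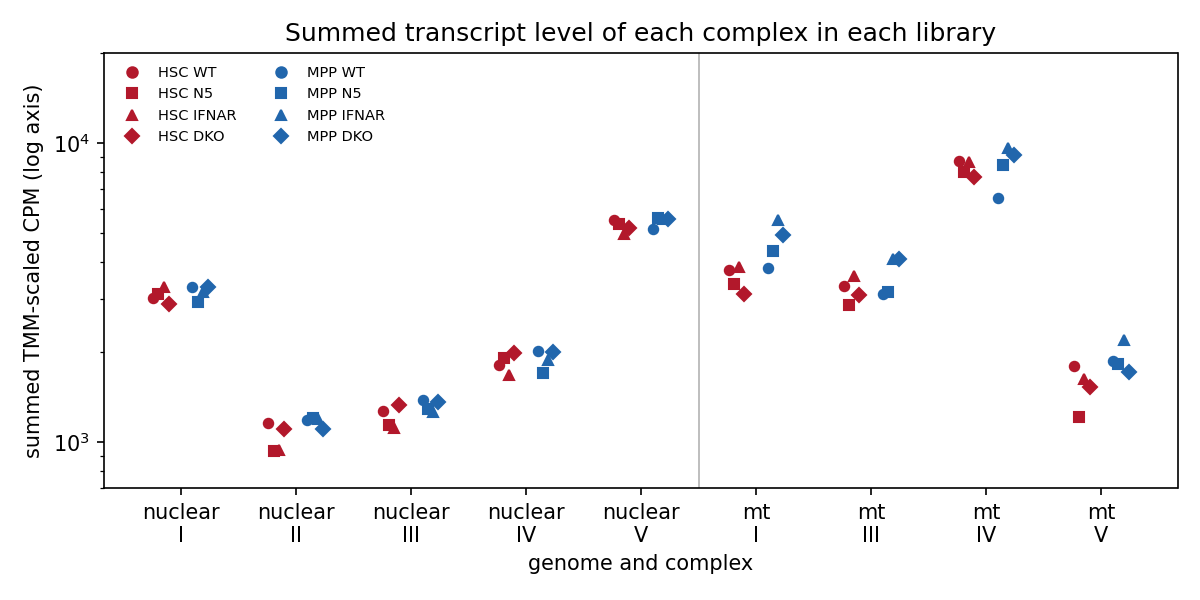
Summed TMM-scaled CPM (y, log axis) of the nuclear and mt- genes of each complex in each library, HSC in red and MPP in blue. The mt- complex I sum is 3132 to 3859 in HSC and 3816 to 5531 in MPP, while the nuclear complex I sums overlap widely.

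Counting members that were lower in HSC in 4 of 4 pairs gave 16 of 93, where 12.0% of all genes did so, and 8 were higher in 4 of 4 pairs, where 9.79% did so. Non-overlapping groups with HSC lower were seen in 9 members (all genes: 5.66%), and with HSC higher in 3 (all genes: 4.74%). The 9 were mt-Nd1, mt-Nd2, Ndufb8, Sdhc, Uqcrq, Cox5a, Cox7b, Ndufa4 and Atp5c1, so that each of the 5 complexes had 1 or more, and the 3 were Ndufa8, Ndufs6 and Atp5g2.

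In complex I, Ndufb8, an accessory subunit of the membrane arm, stood at 70.6, 84.8, 93.3 and 103 CPM in HSC and at 144, 104, 147 and 148 CPM in MPP. All HSC libraries were below all MPP libraries, by a narrow gap to the MPP library labelled N5 (log2 -0.62, SE 0.20, adjusted p = 0.407). Elsewhere in the complex the means lay on both sides. Ndufb5 (39.8 ± 12.7 against 60.4 ± 8.32 CPM) and Ndufb1 (13.6 ± 4.14 against 22.3 ± 5.33) had lower means in HSC. Ndufa8 (104 ± 10.2 against 75.3 ± 11.9) and Ndufa6 (67.9 ± 22.3 against 49.1 ± 9.997) had higher means. Of the 36 nuclear complex I genes tested, 16 had positive and 20 negative differences, with a median of -0.12.

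Complex II was the one complex in which all its genes had lower fitted values in HSC (4 of 4, median -0.27), and 0 of them passed the test. Sdhc, a membrane anchor, was the most separated, at 64.4, 66.3, 57.5 and 63.5 CPM in HSC and 94.3, 82.7, 93.9 and 81.7 CPM in MPP. Those groups lie well apart (log2 -0.48, SE 0.23, adjusted p = 0.582). Sdhb, the iron-sulfur subunit, was 172 ± 22.2 against 220.0 ± 25.3 CPM, and Sdhd, the other anchor, 166 ± 22.2 against 189.7 ± 25.3 CPM, both lower in 4 of 4 pairs. Sdha, the flavoprotein, was 632 ± 109 against 671 ± 71.5 CPM, and its fitted difference changed sign when either library labelled N5 was left out (0.02 each time, against -0.09 with all libraries).

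In complex III, Uqcrq, a small subunit, stood at 41.2, 46.1, 53.9 and 67.2 CPM in HSC and at 67.3, 67.3, 99.1 and 85.2 CPM in MPP. The highest HSC library and the lowest MPP libraries almost touch. Uqcrfs1, the Rieske iron-sulfur protein, was 121 ± 51.1 against 188 ± 21.5 CPM (log2 -0.73, SE 0.30, adjusted p = 0.508), and the HSC library labelled WT, at 189.7 CPM, lay inside the MPP range. Uqcrh, the hinge protein, was 109.7 ± 14.4 against 90.9 ± 12.5 CPM, and the core protein gene Uqcrc1 511 ± 116 against 504 ± 64.3 CPM. The fitted difference of Uqcrc1 (0.01) changed sign when the pair labelled IFNAR or the pair labelled DKO lost either library.

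In complex IV, Ndufa4 stood at 85.8, 107, 121 and 100.2 CPM in HSC and at 199.8, 168, 171 and 146 CPM in MPP. Its fitted difference was the largest among the nuclear members whose groups did not overlap (log2 -0.72, SE 0.19, adjusted p = 0.333). Cox5a was 76.5 ± 11.6 against 103 ± 3.53 CPM and Cox7b 70.0 ± 5.00 against 86.5 ± 6.33 CPM. Cox4i1, the most abundant nuclear gene of the complex, was 481 ± 110.4 against 442 ± 49.0 CPM. Cox7a2l, a factor of supercomplex assembly, was 331 ± 116 against 270.4 ± 68.5 CPM, and Cox6c 88.2 ± 9.53 against 76.3 ± 13.7 CPM.

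In ATP synthase, Atp5c1, the gamma subunit of the rotating stalk, stood at 359, 290.1, 352 and 420.4 CPM in HSC and at 432, 538, 569 and 471 CPM in MPP. The groups were apart by a small gap (log2 -0.50, SE 0.16, adjusted p = 0.407). Atp5pb, of the peripheral stalk, was 286 ± 60.8 against 401 ± 98.9 CPM. Atp5g2 was 123 ± 9.80 against 104 ± 6.79 CPM and Atp5d, the delta subunit of the central stalk, 241 ± 70.9 against 189.7 ± 43.7 CPM (log2 0.33, and -0.0027 or -0.0010 without the HSC or the MPP library labelled N5). Atp5b was 2149 ± 145 against 2098 ± 285 CPM. The inhibitor of ATP synthase, listed as Atpif1 and not matched by the pattern, was 168 ± 22.5 against 174 ± 24.3 CPM (log2 -0.05).

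**Figure D5:**
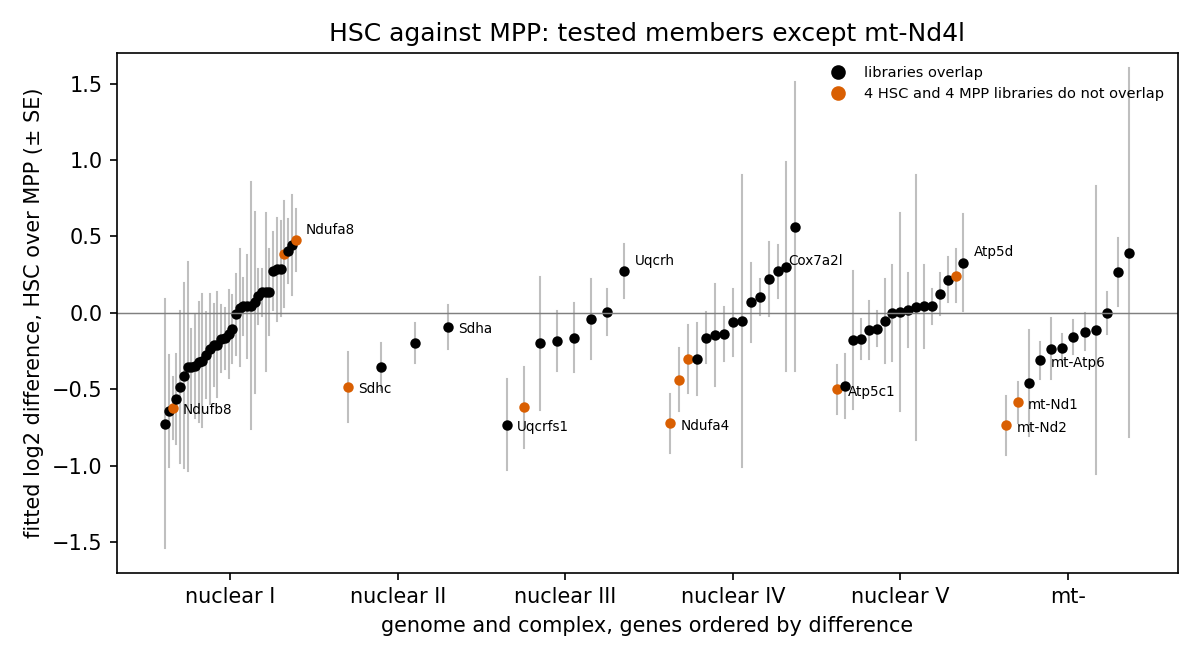
Fitted log2 difference, HSC over MPP, with SE (y) for the tested members except mt-Nd4l, grouped by genome and complex and ordered by value (x). Orange marks the 12 members whose 4 HSC and 4 MPP libraries do not overlap; all 4 complex II genes lie below 0, and no point passed the adjusted test.

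Markers of division and of some other cells moved with the same comparison. The 13 proliferation genes (13 of 13 detected) summed to 3249 to 3900 CPM in HSC and 5737 to 6940 CPM in MPP. Megakaryocyte markers (6 of 6 detected) summed to 328 to 715 against 45.4 to 165 CPM, and monocyte markers (6 of 6) to 0.0324 to 46.7 against 94.7 to 289 CPM. Mast cell and basophil markers (3 of 3) summed to 0 to 15.4 against 40.6 to 143 CPM. The neutrophil, erythroid and B cell lists overlapped between the cell types. Neutrophil markers summed to 494 to 640 CPM in HSC against 133 to 746 in MPP, and erythroid markers to 199 to 583 against 165 to 419. B cell markers summed to 30.5 to 90.4 against 55.6 to 86.6 CPM. T and NK cell markers did not overlap and summed to 33.8 to 65.7 against 298 to 369 CPM. Nearly all of it was Nkg7, with Cd3e, Cd3d and Cd3g (3 of 5) at 0 in all libraries. Stromal and endothelial markers summed to 15.4 to 124.7 against 125.2 to 214 CPM, just short of overlap, with Cdh5 and Col1a1 (2 of 5) at 0 in all libraries. Nearly all of that sum was Pecam1 (15.4 to 98.9 against 114 to 182 CPM) and Emcn (0 to 75.2 against 4.97 to 43.4 CPM). Cxcl12 reached at most 0.102 CPM. Counts on the ribosomal RNA gene Rn18s took 4.71, 5.38, 4.09 and 4.73% of the HSC libraries and 3.43, 3.98, 4.05 and 3.68% of the MPP libraries, so that every HSC library was above every MPP library. The part of these genes' source cells, of division or of ribosomal RNA carry-over in the values of the members was not tested.

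Around the respiratory chain, 0 genes of 5 related lists passed the edgeR test between HSC and MPP. Of 17 citrate cycle genes, 3 had positive and 14 negative differences (median -0.21), and Dlst, a subunit of oxoglutarate dehydrogenase, was 91.8 ± 47.0 against 191 ± 54.5 CPM and Pdhb 169 ± 86.2 against 231 ± 17.2 CPM. Of 78 mitochondrial ribosome genes, 24 were positive and 54 negative (median -0.13), with Mrps7 at 41.4 ± 13.3 against 101.5 ± 37.5 CPM and Mrpl52 at 31.9 ± 2.697 against 18.2 ± 3.45 CPM. Of 27 genes for replication and expression of the mitochondrial genome, 10 were positive and 17 negative (median -0.40), and of 51 assembly factors 24 and 27 (median -0.05). The assembly factor Timmdc1 was 37.7 ± 6.60 against 17.5 ± 8.25 CPM and Foxred1 51.1 ± 29.8 against 92.1 ± 42.8 CPM, both for complex I. Of 18 genes for electron carriers, 5 were positive and 13 negative (median -0.19). Coq8a, needed for ubiquinone synthesis, was 194 ± 52.4 against 69.8 ± 39.5 CPM (adjusted p = 0.366). Cycs, which encodes cytochrome c and was picked after its values were seen, was 69.3 ± 10.5 against 136 ± 17.8 CPM (log2 -0.98, adjusted p = 0.302) and lower in HSC in 4 of 4 pairs.

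The second comparison asked what went with the Nfat5 label (N5 and DKO over WT and IFNAR), with cell type and Ifnar1 label in the fit. By edgeR, 0 members passed the adjusted test, as did 0 of all genes (0%). At an unadjusted p under 0.05 there was 1 member, Ndufv2, where 2.79% of all genes were found. The members' differences were positive in 39 and negative in 54 (median -0.03, against 0.02 over all genes). Lower in 4 of 4 pairs were 8 members (all genes: 5.39%) and higher in 4 of 4 pairs were 3 (all genes: 5.78%).

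Ndufv2, an iron-sulfur subunit of the NADH-oxidizing arm, stood at 188, 165, 196 and 118 CPM in HSC and at 187, 154, 146 and 118 CPM in MPP. The libraries labelled DKO were lowest in both cell types (log2 -0.38, SE 0.15, edgeR adjusted p = 1). Ndufb6 (log2 -0.37, SE 0.35) and Uqcrh (log2 -0.32, SE 0.16) were the other members with the lowest values among those lower in 4 of 4 pairs, and Ndufb6 stood at -0.17 without the HSC library labelled IFNAR. The 3 members higher in 4 of 4 pairs were Ndufb10 (0.42, SE 0.24), Cox4i1 (0.25, SE 0.13) and Sdhd (0.23, SE 0.12). For Cox4i1 the difference leaned on the HSC library labelled DKO, at 645 CPM, while the other HSC libraries held 412 to 451 CPM and the MPP libraries 406, 412, 437 and 513 CPM. The fitted value of Cox4i1 was 0.16 without that library, and also 0.16 without the HSC library labelled IFNAR.

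By genome, 2 of 13 mt- genes had positive and 11 negative differences with the Nfat5 label (median -0.13), and 37 of 80 nuclear genes positive and 43 negative (median -0.01). The mt- median was -0.05 without the HSC library labelled WT, -0.06 without the HSC library labelled DKO and -0.25 without the MPP library labelled WT. The nuclear median changed sign without the MPP library labelled N5 (0.06) or the HSC library labelled WT (0.00067), and lay at -0.06 without the HSC library labelled N5. The log2 ratios of the summed mt- CPM were -0.19 (N5 over WT) and -0.20 (DKO over IFNAR) in HSC and 0.22 and -0.11 in MPP, so the pairs differed in sign. mt-Atp6 was lower in 4 of 4 pairs (log2 -0.26, SE 0.11, adjusted p = 1).

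The third comparison asked the same of the Ifnar1 label (IFNAR and DKO over WT and N5). Again 0 members passed the adjusted edgeR test and 0% of all genes did. At an unadjusted p under 0.05 there were 2 members, both higher, where 3.28% of all genes were found. Differences were positive in 59 members and negative in 34 (median 0.07, against -0.01 over all genes). Higher in 4 of 4 pairs were 12 members (all genes: 5.89%) and lower in 4 of 4 pairs was 1 (all genes: 6.16%).

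Ndufs1, the largest iron-sulfur subunit of complex I, stood at 197, 131, 278 and 181 CPM in HSC and at 129, 108, 154 and 199.97 CPM in MPP. Each library labelled IFNAR was above the WT library, and each labelled DKO above N5, of its cell type (log2 0.55, SE 0.20, edgeR adjusted p = 1, and 0.35 without the MPP library labelled DKO). mt-Cytb stood at 3336, 2876, 3585 and 3097 CPM in HSC and at 3128, 3178, 4079.7 and 4085 CPM in MPP, with the same order within pairs (log2 0.24, SE 0.09, adjusted p = 1). Ndufa6 (0.47, SE 0.32) and Uqcrq (0.46, SE 0.24) were also higher in 4 of 4 pairs, and Ndufa6 stood at 0.25 without the HSC library labelled DKO. Sdhc was the 1 member lower in 4 of 4 pairs, by a log2 difference of -0.06 (SE 0.21), and that sign turned when the HSC library labelled IFNAR was left out (0.0019).

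With this label the mt- sums differed more in MPP pairs than in HSC pairs. In MPP the summed mt- CPM was 15327 in the library labelled WT, 17841 in N5, 21422 in IFNAR and 19838 in DKO, whereas in HSC it was 17636, 15457, 17737 and 15452. The log2 ratios were 0.48 (IFNAR over WT) and 0.15 (DKO over N5) in MPP, and 0.01 and -0.00046 in HSC. Nuclear sums moved by log2 -0.09 to 0.07 in the same 4 pairs. Comparisons by label share libraries, so these pairs are not independent of those by the Nfat5 label.

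Whether differences by 1 label depended on the other label or on the cell type was tested with interaction terms. By edgeR 0 members and 0% of all genes passed in each of the 3 interaction tests. At an unadjusted p under 0.05 there was 1 of 93 members for Nfat5 by Ifnar1 (all genes: 3.33%), 2 for cell type by Nfat5, of which 1 was higher and 1 lower (all genes: 4.42%), and 2 for cell type by Ifnar1, both lower (all genes: 4.82%). Those described here, named after their values were seen, were Cox7a2l in the first (log2 1.09, SE 0.34), Atp5d in the second (1.17, SE 0.36), and mt-Nd5 (-0.75, SE 0.27) and Ndufa10 (-0.93, SE 0.27) in the last. DESeq2 called Ndufa10, an accessory subunit of complex I, in the last of these (adjusted p = 0.00194), with 5.00% of all genes called. Ndufa10 stood at 187, 168, 122 and 103 CPM in HSC and at 178, 151, 224 and 174 CPM in MPP: lower with the Ifnar1 label in both HSC pairs and higher in both MPP pairs. The edgeR adjusted p for that interaction was 0.921.

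By label the related lists gave 0 calls as well. With the Nfat5 label, 3 of 17 citrate cycle genes had positive and 14 negative differences (median -0.13), and 48 of 78 mitochondrial ribosome genes positive and 30 negative (median 0.06). Assembly factors had 25 positive and 26 negative, genes for expression of the mitochondrial genome 15 and 12, and electron carriers 6 and 12. Over all genes tested 51.6% were positive. With the Ifnar1 label, 50 of 78 mitochondrial ribosome genes were positive and 28 negative (median 0.07), and 8 of 27 genes for expression of the mitochondrial genome positive and 19 negative (median -0.16). Citrate cycle genes had 8 positive and 9 negative, assembly factors 27 and 24, and electron carriers 9 and 9. Over all genes tested 49.6% were positive.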

How the data were processed

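The counts per gene used here are a table deposited by the authors for all 8 libraries, with whole-number counts that are not normalized. Per the submitters' processing notes, STAR 2.7.8a, RSEM 1.3.0 and the GRCm39 build were used; the strand setting of the counting was not stated. The members and gene lists were chosen with earlier results of these data known. Each library's group came from its label.

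Counts were tested with edgeR 4.0.16 (quasi-likelihood, TMM scaling, filterByExpr by cell type) in R 4.3.3, with limma 3.58.1, on all rows, leaving 12132 genes, and p-values were Benjamini-Hochberg adjusted over all of them at a threshold of 0.05. HSC against MPP had genotype label as a block (3 residual degrees of freedom). Each label was tested with the cell type and the other label in the fit (4), and each of 3 interactions was added to that fit (3). The script was tested on simulated data. DESeq2 1.42.0, limma-voom, other scalings, filters and leaving out each library were alternatives. For HSC against MPP, a label left with 1 library adds nothing to the difference. Leaving out either library of a label is therefore nearly the same check. Pair ratios used a prior count of 2 in TMM-scaled CPM. An SD is over the 4 libraries of a cell type, which differ in genotype label.

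Named genes were all mt- genes; in each complex, at 10 CPM or more, the most abundant nuclear gene and the 2 largest and 2 smallest fitted cell type differences; tissue forms and their partners; the subunit c genes and inhibitor; and, per label, up to 3 genes each way with the same direction in 4 of 4 pairs. The 2 largest differences each way were eligible in related lists. Genes named for groups that do not overlap, for interactions or for a DESeq2 call were added after their values were seen. 1 result that this rule covers is not reported here. Lengths and mt- coordinates came from GENCODE M21 (GRCm38), promoters from RefSeq (GRCm38.p6). Each length is that of the gene's protein-coding transcript with the longest coding sequence, and of the longest such transcript where these tie. Ndufb11b and 1 of 2 rows named Atp5o are copies with counts of 0, so reads shared between near-identical genes are uncertain.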

Additional observations from a re-analysis of the deposited data

Results flagged for a closer look

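In each cell type, the highest or lowest of the 4 libraries was compared with its nearest neighbour as a share of the whole range (Dixon's ratio at its usual critical value). Of 133 groups of 4 libraries, 10 passed. Chance passes about 1 in 20 among independent groups, but these groups share genes and libraries, so the counts cannot be set against that rate. Where the other libraries all held 0, as for Cox7a1 in HSC and mt-Nd4l in MPP, the ratio is 1 whatever the value.

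Among mt- genes, mt-Nd2 stood at 211 CPM in the MPP library labelled IFNAR, while the other MPP libraries held 107 to 115. mt-Nd4 stood at 1177 CPM in the HSC library labelled IFNAR against 1031 to 1043 in the others, and mt-Co2 at 1295 CPM in the HSC library labelled WT against 1200.8 to 1209. mt-Nd4l had 0.310 CPM in the MPP library labelled DKO and 0 in the other MPP libraries.

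Among nuclear genes, Cox4i1 stood at 645 CPM in the HSC library labelled DKO against 412 to 451 in the others. Cox7a2 stood at 79.7 CPM in the MPP library labelled WT against 94.1 to 94.4, and Cox7b at 95.9 CPM in the MPP library labelled IFNAR against 82.3 to 84.3. Cox7a1 had 0.686 CPM in the HSC library labelled IFNAR and 0 in the other HSC libraries, and 0.350 CPM in the MPP library labelled N5 against 0 to 0.0274. The summed CPM of nuclear complex V was 5152 in the MPP library labelled WT and 5553 to 5609 in the other MPP libraries. The causes were not tested.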

How the results depend on the processing

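With 1 library per group, the fits rest on 3 or 4 residual degrees of freedom, and genotype, pool and library preparation cannot be told apart. Between HSC and MPP, edgeR called 2 genes with all libraries, 0 to 0 when any 1 library was left out, 23 at 10 CPM in 4 libraries, 207 with no genotype block (no replicate block), 156 by limma-voom, 107 by the bias-adjusted quasi-likelihood test and 1880 by DESeq2, which also called 7 members. The smallest adjusted p among members was 0.0756 without the block, 0.0828 by limma-voom, 0.0860 by the bias-adjusted test and 0.198 at 10 CPM. DESeq2 called 166 genes for the Nfat5 label, 233 for the Ifnar1 label (limma-voom 1, bias-adjusted test 1), 393 for Nfat5 by Ifnar1, 585 for cell type by Nfat5, and 607 genes with 1 member for cell type by Ifnar1. The summed difference of nuclear complex III went from -0.13 to -0.23 (log2) without its most abundant member. Leaving out 1 library turned the sign for 4 of the named genes refitted. The cell type differences ranged from -0.19 to 0.0188 for Sdha, -0.0027 to 0.54 for Atp5d and -0.13 to 0.12 for Uqcrc1, and the Ifnar1 label difference of Sdhc from -0.11 to 0.0019. The nuclear median for the Ifnar1 label went from 0.055 to -0.0081 without the MPP library labelled N5. The nuclear median for the Nfat5 label also changed sign, as given above. mt-Nd1 stayed between -0.72 and -0.52 in the fits with 1 library left out. No paired analysis by replicate number was possible because every group has 1 library. The causes were not tested.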
